A study of Mus musculus with 8 samples.

Results

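The Cyp2a and Cyp2d genes encode cytochrome P450 enzymes that are abundant in mouse liver, and Por encodes the reductase that serves them. The list held 10 genes (Cyp2a4, Cyp2a5, Cyp2a12, Cyp2a22, Cyp2d9, Cyp2d10, Cyp2d22, Cyp2d26, Cyp2d40 and Por), chosen by subfamily, with earlier results of these data known. The platform annotation paired 7 of them with a probe set, among 19540 genes in all, and each had a single probe set listed under its symbol alone. Cyp2a4, Cyp2a5 and Por were not analysed here. Expression was measured in livers of male C57B/6 mice aged 12 weeks, kept on normal chow and a light and dark cycle with no treatment, and sampled at ZT10, 10 h after lights on and given as 5 pm. There were 4 arrays labelled WT and 4 labelled HNF6KO, whose livers were depleted of HNF6, the homeodomain transcription factor encoded by Onecut1. The sources used here do not give how HNF6 was depleted, in which cells, or whether each array came from its own animal, and a p-value therefore covers just the spread among these arrays. Values are log2 expression as deposited, and a change is the HNF6KO mean minus the WT mean.

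Microsomal P450s sit in the endoplasmic reticulum and insert an oxygen atom into steroids, bile acids, drugs and other lipophilic compounds. They take electrons from NADPH through P450 reductase, with cytochrome b5 as a second donor for some reactions, and each holds a heme group. The Cyp2d genes of the mouse lie in a tandem cluster and the Cyp2a genes in another, so their transcripts resemble each other and a probe set can pick up relatives.

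RefSeq promoter sequences (GRCm38.p6) were found for 6 of the 7 measured genes, Cyp2a12, Cyp2a22, Cyp2d9, Cyp2d10, Cyp2d26 and Cyp2d40. Those of 5 genes are shown, 250 bases up to the transcript start, 5′ to 3′ on the gene's strand, because they show where genes of a cluster are and are not alike just upstream of their starts. They lie at chr7:27028840-27029089 (plus strand) for Cyp2a12, chr7:26939387-26939636 (minus) for Cyp2a22, chr15:82452127-82452376 (plus) for Cyp2d9, chr15:82407195-82407444 (minus) for Cyp2d10 and chr15:82764123-82764372 (minus) for Cyp2d40. Capitals mark matches to TATAAA, the letters of a TATA box, and to AGGNCA written again after a single spacer base, a direct repeat of the type bound by HNF4α, on either strand.
Cyp2a12: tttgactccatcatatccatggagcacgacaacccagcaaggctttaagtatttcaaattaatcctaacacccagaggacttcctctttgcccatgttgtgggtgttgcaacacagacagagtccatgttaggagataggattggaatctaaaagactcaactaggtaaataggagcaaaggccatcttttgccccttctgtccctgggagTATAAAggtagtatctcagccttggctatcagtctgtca
Cyp2a22: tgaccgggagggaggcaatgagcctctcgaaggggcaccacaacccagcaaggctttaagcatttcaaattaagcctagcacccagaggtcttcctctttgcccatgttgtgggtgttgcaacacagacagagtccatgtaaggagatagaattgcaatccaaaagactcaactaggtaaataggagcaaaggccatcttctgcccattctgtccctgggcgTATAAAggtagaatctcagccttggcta
Cyp2d9: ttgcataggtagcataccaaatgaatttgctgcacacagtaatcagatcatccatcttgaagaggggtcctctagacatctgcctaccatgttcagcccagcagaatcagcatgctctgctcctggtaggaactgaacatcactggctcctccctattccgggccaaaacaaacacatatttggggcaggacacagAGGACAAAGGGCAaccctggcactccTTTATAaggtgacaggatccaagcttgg
Cyp2d10: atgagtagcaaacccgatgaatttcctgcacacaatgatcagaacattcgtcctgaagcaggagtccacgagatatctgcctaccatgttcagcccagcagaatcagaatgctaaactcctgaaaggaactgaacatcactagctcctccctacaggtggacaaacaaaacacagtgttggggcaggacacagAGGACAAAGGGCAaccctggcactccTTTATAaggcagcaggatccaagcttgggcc
Cyp2d40: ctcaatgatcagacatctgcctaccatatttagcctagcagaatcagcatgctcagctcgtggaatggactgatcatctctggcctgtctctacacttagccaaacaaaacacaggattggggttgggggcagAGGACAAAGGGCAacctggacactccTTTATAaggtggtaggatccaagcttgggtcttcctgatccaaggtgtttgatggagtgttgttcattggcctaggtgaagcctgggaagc
The Cyp2a12 and Cyp2a22 promoters were identical at 82.8% of aligned columns, and those of Cyp2d9 and Cyp2d10 at 82.3%. Over whole windows Cyp2d40 was identical to Cyp2d9 at 47.9% and to Cyp2d10 at 49.4%, and Cyp2d26 to the other Cyp2d promoters at 40.4% to 50.5%. Cyp2a promoters against these Cyp2d promoters gave 44.5% to 50.5%. The direct repeat was present on the sense strand of Cyp2d9, Cyp2d10 and Cyp2d40, where it ran from base 54 to 42, 57 to 45 and 117 to 105 before the start. The Cyp2d40 window is thus offset against those of Cyp2d9 and Cyp2d10. Its whole-window identity to them does not measure how alike the sequences are around the repeat. Of 32851 promoter windows of this length in the table, 0.3% held it on either strand. TATAAA was present on either strand in all 6 promoters and in 12.4% of all windows. The match was on the sense strand in Cyp2a12 and Cyp2a22. In Cyp2d9, Cyp2d10, Cyp2d26 and Cyp2d40 it was on the antisense strand, and reads TTTATA on the gene's strand. ATTGAT and ATTGAC, the core letters of the HNF6 site, were in none of the 6 (6.7% and 5.5% of all windows held them), nor was AGGTCA, the core letters of REV-ERB sites (14.0%). The direct repeat and TATAAA were chosen after the sequences had been read. AGGTCA can lie within the direct repeat. A match is not evidence of binding, and sites outside these windows were not searched.

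The knockout label was checked on Onecut1 first. Its log2 values ran from 9.87 to 10.52 on the WT arrays and from 8.67 to 9.32 on the HNF6KO arrays, and the groups did not overlap. The log2 change of Onecut1 was -1.32 ± 0.18 (SE), a fall that passed limma's test (Benjamini-Hochberg adjusted p = 0.0273). The call was lost without WT array 1, 3 or 4 or HNF6KO array 3 or 4 (adjusted p = 0.0633 to 0.0954). Taken from arrays 1 and 2 alone its change was -0.83 (adjusted p = 0.171), and from arrays 3 and 4 alone -1.80 (adjusted p = 0.00140). Of 6 measured hepatocyte markers 0 passed in limma, and their summed level, in which the brightest genes weigh most, was 16.06 to 16.10 in WT and 16.05 to 16.15 in HNF6KO. Alb and Ttr had all HNF6KO arrays above all WT arrays (changes of 0.08 and 0.09), as did 2.45% of all genes. Hnf4a spread over an SD of 0.27 in WT and 0.33 in HNF6KO, and in both groups arrays 1 and 2 lay below arrays 3 and 4. No marker of Kupffer, endothelial, stellate, cholangiocyte or lymphoid and neutrophil cells passed in limma. Of them 1, Cd3g, had an unadjusted p under 0.05, as did 9.51% of all genes. Cd3g was dim, at 5.33 in WT and 5.59 in HNF6KO, below the array medians of 6.89 to 6.97. All 10 Kupffer and all 8 endothelial markers had a change above 0, with medians of 0.10 and 0.17, while 57.4% of all genes had one below 0. Markers of a cell type moved together between arrays, so these counts are not of independent genes. The summed Kupffer markers ran from 11.25 to 12.60 in WT and from 11.30 to 12.96 in HNF6KO. The summed cholangiocyte and lymphoid markers lay at 8.55 to 8.68 and 8.79 to 8.93 on the 8 arrays, and the summed stellate markers at 11.65 to 12.37 in WT and 11.68 to 12.45 in HNF6KO. Of the cholangiocyte and lymphoid markers, all but Sox9 and Cd3e averaged below the array medians. Their level over background was not measured, so their sums say little about these cells.

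None of the 7 measured P450s passed the test when HNF6 was depleted, and each mean lay within 0.24 log2 units of its WT mean. In limma 0 of 7 had an adjusted p under 0.05, against 0.399% of all genes (78 of 19540, 0.159% higher and 0.241% lower), and adjusted p ran from 0.291 to 0.961. The count of 78 was 26, 16, 28 or 40 without WT array 1, 2, 3 or 4, and 27 or 30 without HNF6KO array 3 or 4, and 0 members passed in each case. At an unadjusted p of 0.05, 1 of 7 passed (Cyp2a12, lower), against 9.51% of all genes (4.3% higher and 5.21% lower). The changes ran from -0.24 for Cyp2d40 to 0.08 for Cyp2d22, with a median of -0.09, against -0.01 over all genes. Of the 7, 6 had a change below 0, as did 57.4% of all genes. The per-gene 95% intervals, which are not adjusted for the number of genes, reached down to -0.52 (Cyp2d40) and up to 0.39 (Cyp2d22). Changes of that size were not excluded by 4 arrays a group.

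Cyp2a12, an enzyme of mouse liver that hydroxylates testosterone and bile acids at the 7 position, was the member with the clearest separation. Its probe set (10551287) read 13.03, 12.88, 13.09 and 13.08 in WT and 12.82, 12.64, 12.81 and 12.87 in HNF6KO, each in the order of arrays 1 to 4 as for the genes below. Every HNF6KO array lay below every WT array, although HNF6KO array 4 and WT array 2 were nearly equal. The mean was 13.02 ± 0.10 in WT and 12.79 ± 0.10 in HNF6KO (SD, n = 4), a change of -0.23 ± 0.07 (SE), or 1.18-fold lower. The interval ran from -0.39 to -0.08, and the adjusted p was 0.291, so Cyp2a12 did not pass over all genes in limma. It was the only member of the 7 whose groups did not overlap, where 5.67% of all genes were apart (2.45% higher and 3.21% lower). Taken from arrays 1 and 2 alone the change was -0.22, and from arrays 3 and 4 alone it was -0.25. The probe set stood among the brightest of the liver, at the 99.7th percentile of genes in WT and the 99.6th in HNF6KO.

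Cyp2a22, which shares the cluster and much of the promoter sequence with Cyp2a12, gave a dim signal in both groups. Probe set 10561162 read 5.17, 5.06, 5.40 and 5.18 in WT and 4.83, 5.13, 5.49 and 4.98 in HNF6KO. The groups overlapped fully, with array 3 the highest of each. The change was -0.10 ± 0.14 (limma, adjusted p = 0.896). At the 14.5th percentile of genes in WT and the 13.1st in HNF6KO, this signal was among the dimmer ones, and its level over background was not measured. The change was -0.22 without HNF6KO array 3 and -0.003 without HNF6KO array 1.

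Cyp2d9 encodes the testosterone 16α-hydroxylase that is known as a marker of male-type liver. Its probe set (10425763) read 11.66, 11.72, 11.83 and 11.64 in WT and 11.79, 11.27, 11.61 and 11.83 in HNF6KO. HNF6KO array 2 was the lowest of the 8, and the other HNF6KO arrays lay within or beside the WT range. The means were 11.71 ± 0.08 and 11.63 ± 0.26 (SD, n = 4), a change of -0.09 ± 0.12 (limma, adjusted p = 0.891). The lower end of its interval was -0.35, a 1.28-fold fall.

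Cyp2d10 and Cyp2d22 lie on the same side of the cluster as Cyp2d9. Cyp2d10 (10430866) read 11.42, 11.40, 11.54 and 11.27 in WT and 11.49, 11.13, 11.32 and 11.56 in HNF6KO, a change of -0.04 ± 0.10 (adjusted p = 0.961). Cyp2d22 (10430851), often studied as the mouse counterpart of human CYP2D6, read 11.71, 11.45, 11.90 and 11.54 in WT and 11.93, 11.35, 11.84 and 11.79 in HNF6KO. Its change was 0.08 ± 0.14 (adjusted p = 0.926). In neither gene were the groups apart, and the lowest array was HNF6KO array 2 in both.

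Cyp2d26 and Cyp2d40 lie at the other end of the cluster, next to each other apart from a pseudogene. Cyp2d26 (10430909), the brightest of the 7 probe sets, read 13.07, 13.06, 13.20 and 13.12 in WT and 13.16, 12.87, 13.20 and 13.10 in HNF6KO. It had the narrowest range of the 7, 0.33 log2 units over the 8 arrays, and a change of -0.03 ± 0.08 (adjusted p = 0.960). Cyp2d40 (10430899) was less bright, at the 81.2nd percentile of genes in WT and the 77.9th in HNF6KO. It read 8.63, 8.95, 8.93 and 9.04 in WT and 8.82, 8.42, 8.49 and 8.88 in HNF6KO. WT array 1 lay inside the HNF6KO range, while the other WT arrays lay above all HNF6KO arrays. The change was -0.24 ± 0.13 (limma, adjusted p = 0.620), or 1.18-fold lower, with an interval from -0.52 to 0.05.

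**Figure D1:**
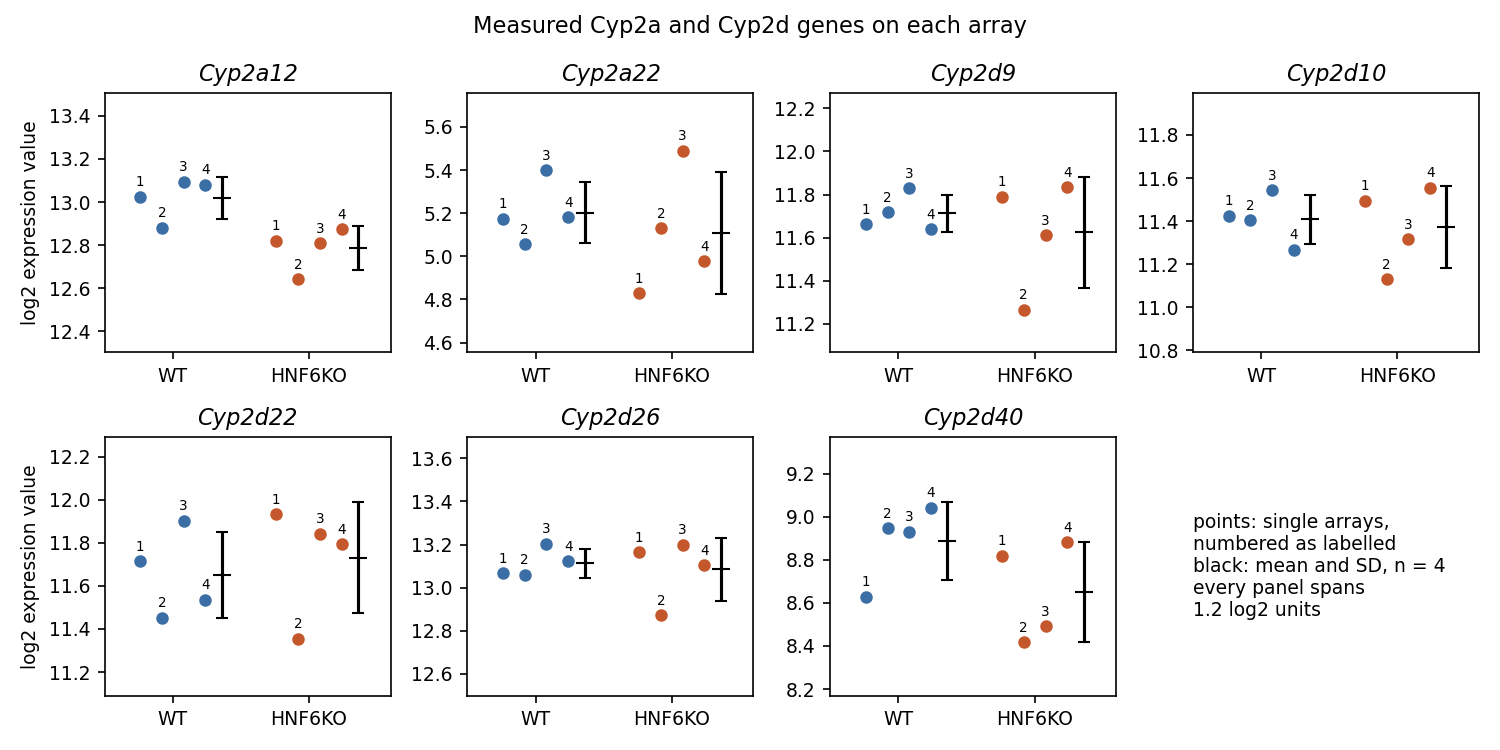
Log2 expression of the 7 measured Cyp2a and Cyp2d genes (vertical axis, log2 units) on 4 WT and 4 HNF6KO arrays, with points numbered by array and the mean and SD beside them. Cyp2a12 is the gene whose groups do not overlap, and HNF6KO array 2 is the lowest array of all 5 Cyp2d genes.

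Members of a subfamily were not shown to respond differently from each other. The per-array difference between 2 members was compared between groups for 11 pairs (1 in Cyp2a, 10 in Cyp2d) with an exact two-sided permutation test over 70 assignments, whose smallest p is 0.0286. With 11 pairs, no single pair could pass after adjustment. Among the pairs 0 had a p under 0.05 and 0 had groups apart, and the smallest p was that of Cyp2d9 against Cyp2d22 (exact p = 0.143). Adjusted p ran from 0.494 to 0.886. The largest difference was between Cyp2d22 and Cyp2d40, whose log2 ratio was 2.76 ± 0.31 in WT and 3.08 ± 0.20 in HNF6KO (SD, n = 4, exact p = 0.229).

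All 5 measured Cyp2d genes deviated in the same direction from their group mean on HNF6KO arrays 1, 2 and 4 and WT array 3. Signs were mixed on the other arrays. On HNF6KO array 2 all 5 measured Cyp2d members were the lowest of their group, by 0.21 to 0.38 log2 units under the group mean, and so was Cyp2a12. That array held the lowest value of its group for 24.9% of all genes, and for 48.2% of the 677 genes with a mean log2 value above 11, the range in which 4 of the 5 Cyp2d members lie. On WT array 3 the values of 4 of the 5 were the highest of their group, against 38.4% of those 677 genes. Summed Kupffer markers (10 genes) were 11.30 and summed endothelial markers (8 genes) 11.55 on HNF6KO array 2, the lowest of the HNF6KO arrays, whose highest were 12.96 and 12.58. Summed stellate markers (8 genes) were also lowest there among HNF6KO arrays, at 11.68 against 12.13 to 12.45. Over the WT arrays the Kupffer and endothelial sums ran from 11.25 to 12.60 and from 11.67 to 12.41. The part of these markers in the Cyp2d values was not tested, and in bulk liver fewer cells of a type and less RNA per cell cannot be told apart. Without HNF6KO array 2 the change of Cyp2d9 was 0.03, that of Cyp2d10 0.05 and that of Cyp2d26 0.04, all above 0. Without it the change of Cyp2d22 was 0.21 (0.08 with it), that of Cyp2d40 stayed below 0 at -0.16, and that of Cyp2a12 was -0.19 (limma, adjusted p = 0.414).

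**Figure D2:**
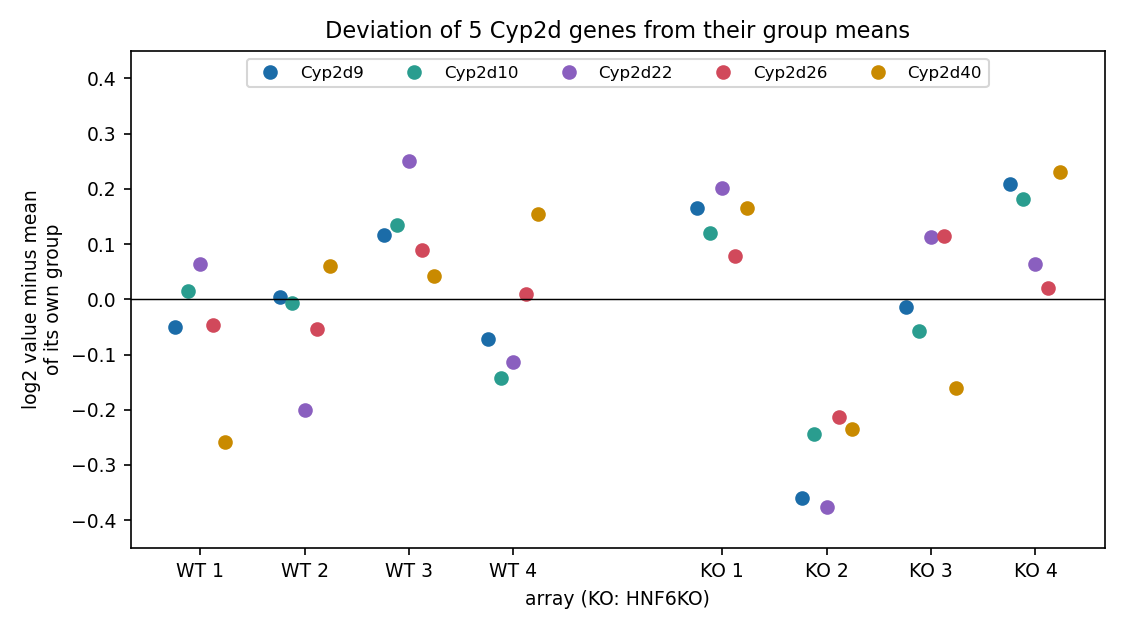
Deviation of 5 Cyp2d genes from the mean of their own group (vertical axis, log2 units) on each array, with KO standing for HNF6KO. All 5 genes lie 0.21 to 0.38 below their mean on HNF6KO array 2 and above it on HNF6KO arrays 1 and 4 and WT array 3. Signs are mixed on the other arrays.

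No other measured gene of the clusters passed the test, and several were dim. In the reference gene table the Cyp2d cluster on chromosome 15 holds 19 entries, of which 8 are coding genes and 11 pseudogenes, and 10 of the 19 were measured. Of 10 measured genes among the other Cyp2a and Cyp2d genes and Cyp2 genes near or related to them, 0 passed in limma, and the median change was -0.065. The unadjusted p was under 0.05 for 2 lower and 0 higher of the 10, against 5.21% lower and 4.3% higher of all genes. Cyp2d11 (5.38 in WT and 5.41 in HNF6KO), Cyp2d12 (5.07 and 5.14) and Cyp2d34 (6.56 and 6.52) lay below the array medians of 6.89 to 6.97. The transcribed pseudogenes Cyp2d13 and Cyp2d37-ps gave bright signals. Cyp2d13 averaged 11.42 ± 0.14 in WT and 11.18 ± 0.27 in HNF6KO (SD, n = 4), a change of -0.24 ± 0.13 (limma, adjusted p = 0.625). Cyp2d37-ps averaged 11.05 ± 0.22 and 10.71 ± 0.28, a change of -0.34 ± 0.15 (limma, adjusted p = 0.525). Signal from coding relatives at these probe sets was not tested.

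Cyp2f2, a P450 of the airway and of periportal hepatocytes that bioactivates naphthalene, was on the same list. It read 13.45, 13.38, 13.56 and 13.48 in WT and 13.18, 12.88, 13.23 and 13.46 in HNF6KO. HNF6KO array 4 lay inside the WT range and the other HNF6KO arrays below it. Its change of -0.28 ± 0.11 did not pass (limma, adjusted p = 0.450), nor did that of the dim Cyp2g1 (-0.12 ± 0.05, adjusted p = 0.510).

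**Figure D3:**
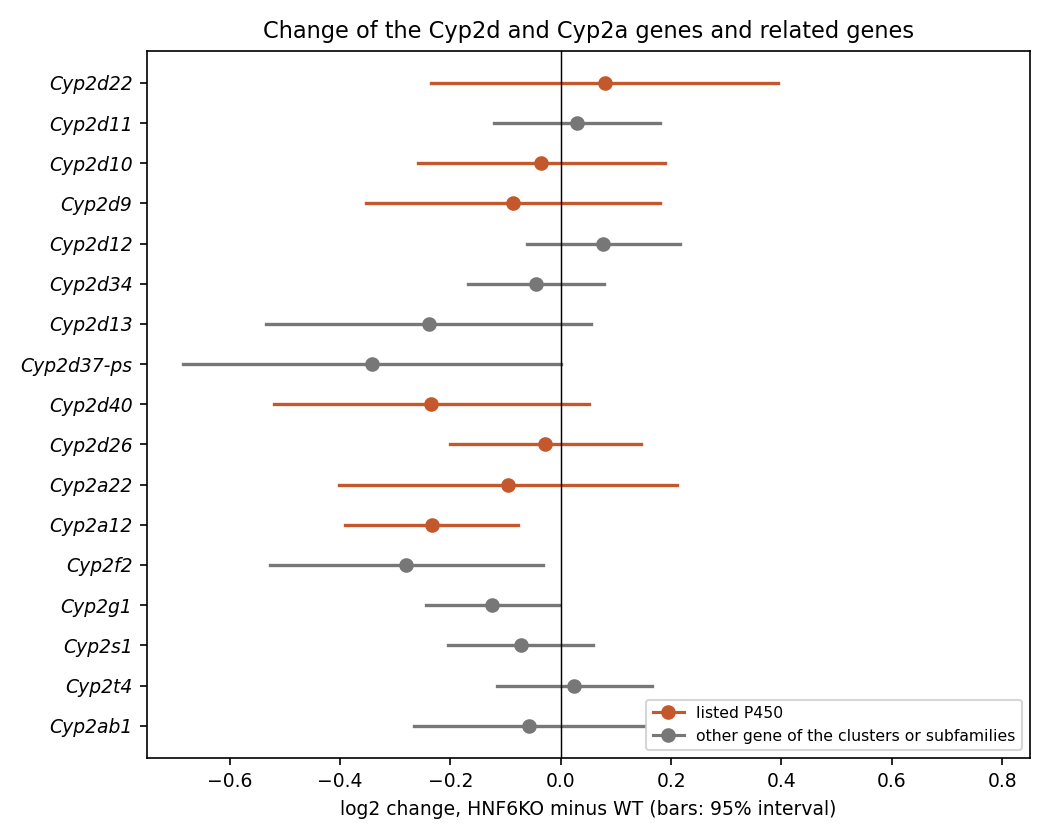
Log2 change (HNF6KO minus WT, horizontal axis) with its per-gene 95% interval for the 7 listed P450s and 10 other genes of the clusters or of related Cyp2 subfamilies, the Cyp2d genes in chromosome order. The interval of Cyp2a12 runs from -0.39 to -0.08, and those of the other 6 listed genes cross 0.

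With Por not analysed here, redox partners of microsomal P450s and genes of heme handling were read from a list of 18 genes, of which 17 were measured. Not all of them supply electrons or heme to P450s. The list also held the heme-degrading Hmox1 and Hmox2, the biliverdin reductases Blvra and Blvrb, and H6pd. None passed in limma (0 rose, 0 fell), and the median change was -0.005. The unadjusted p was under 0.05 for 1 higher and 2 lower of the 17, against 4.3% higher and 5.21% lower of all genes. Cytochrome b5, Cyb5a, averaged 12.50 in WT and 12.51 in HNF6KO, a change of 0.02 ± 0.06 (adjusted p = 0.967), and the heme-binding P450 partner Pgrmc1 had a change of 0.01 ± 0.06 (adjusted p = 0.981). Ppox, an enzyme late in heme synthesis, had a change of 0.27 ± 0.10 (adjusted p = 0.421) and Alad, an early one, of -0.24 ± 0.17 (adjusted p = 0.734). H6pd, which makes NADPH inside the endoplasmic reticulum, had a change of -0.19 ± 0.07 (adjusted p = 0.455). Cyb5r1, a cytochrome b5 reductase family gene, had one of -0.14 ± 0.05 (adjusted p = 0.431) with groups that did not overlap. It was the only gene of the 17 with groups apart, where 3.21% of all genes were apart and lower. Alas1, the rate-limiting enzyme of hepatic heme synthesis, spread over an SD of 0.44 in WT and had a change of 0.22 ± 0.20 (adjusted p = 0.814).

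**Figure D4:**
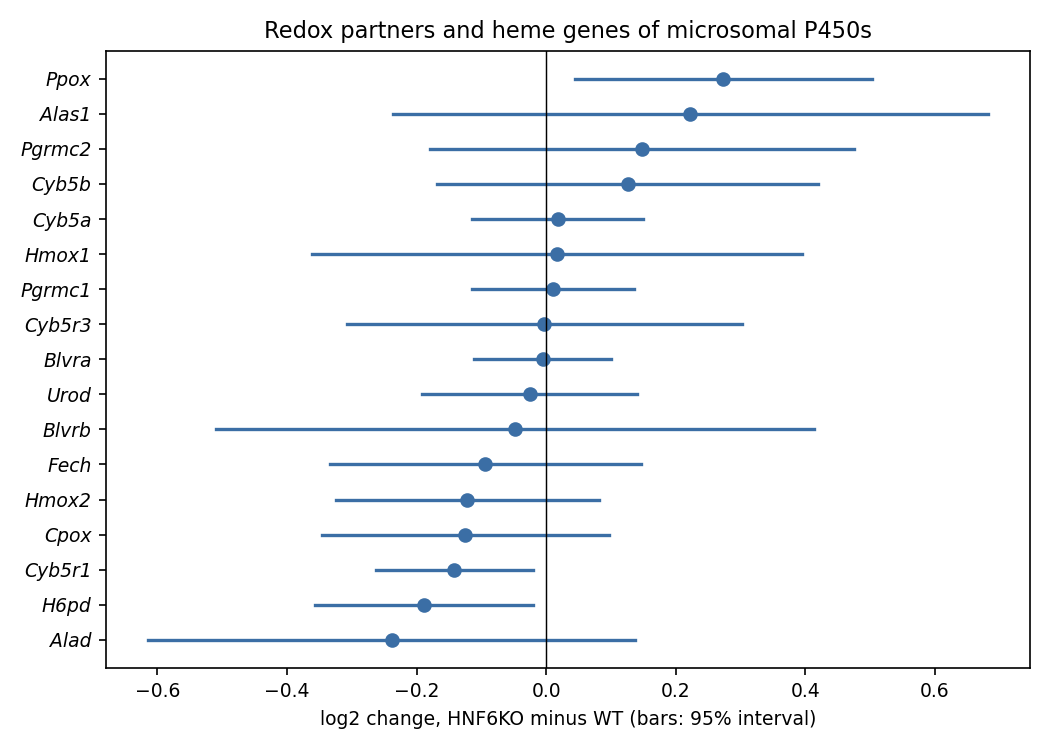
Log2 change (HNF6KO minus WT, horizontal axis) with its per-gene 95% interval for the 17 measured genes on the list of P450 redox partners and heme handling. The changes run from -0.24 for Alad to 0.27 for Ppox.

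A list of other enzymes, most of which draw on P450 reductase, held a gene that changed. It included Tbxas1 and Ptgis, P450s that do not need the reductase, and neither passed. Of 30 measured, 0 rose, 1 fell and 29 did not pass, against 0.399% called over all genes, and the median change was -0.10. The unadjusted p was under 0.05 for 4 higher and 7 lower of the 30, against 4.3% higher and 5.21% lower of all genes. The groups were apart for 3 higher and 4 lower, against 2.45% higher and 3.21% lower of all genes. The gene that fell was Cyp4f14, a leukotriene and fatty acid ω-hydroxylase, which read 10.65 to 10.76 in WT and 9.50 to 10.01 in HNF6KO. Its change was -0.95 ± 0.11 (limma, adjusted p = 0.0111), and the call was lost without WT array 2 (adjusted p = 0.0570) and with arrays 1 and 2 alone (-0.72, adjusted p = 0.0976). Cyp2j6 (0.37 ± 0.07, adjusted p = 0.0888), Cyp4f15 (0.37 ± 0.09, adjusted p = 0.168) and the vitamin D 25-hydroxylase Cyp2r1 (-0.23 ± 0.05, adjusted p = 0.172) did not pass. Larger falls than that of Cyp4f14, in Cyp4a14 (-1.38 ± 0.53, limma, adjusted p = 0.444) and Cyp2j9 (-1.13 ± 0.27, adjusted p = 0.173), did not pass either, and their groups overlapped. The highest change of the list was 0.78 ± 0.44 (Cyp39a1, adjusted p = 0.642). Of 4 measured mitochondrial P450s and redox partners, which use ferredoxin and not Por, 0 passed. The sterol 27-hydroxylase Cyp27a1 had a change of -0.33 ± 0.10 (adjusted p = 0.327), and the ferredoxin Fdx1 one of 0.10 ± 0.08 (adjusted p = 0.758). The other measured genes of that list were Cyp11a1 (-0.12 ± 0.09) and Cyp27b1 (0.02 ± 0.06).

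Among 26 measured regulators of hepatic P450 genes, the depleted gene Onecut1 fell, 0 rose and 25 did not pass, with a median change of -0.03. Over all genes 0.399% were called. The unadjusted p was under 0.05 for 3 higher and 3 lower of the 26, against 4.3% higher and 5.21% lower of all genes. The groups were apart for 2 higher and 2 lower, against 2.45% higher and 3.21% lower of all genes. Esr1, the estrogen receptor α, read 8.04 to 8.52 in WT and 9.01 to 10.26 in HNF6KO. The groups did not overlap, and the change of 1.31 ± 0.24 did not pass (limma, adjusted p = 0.0687). Arnt, the partner of the aryl hydrocarbon receptor, had a change of 0.23 ± 0.06 (adjusted p = 0.217) and the pioneer factor Foxa1 one of -0.45 ± 0.18 (adjusted p = 0.450), both with groups apart. Of 11 measured pericentral genes, which mark the zone around the central vein where many P450s are richest, 0 passed. The groups were apart for 1 higher and 0 lower of the 11, against 2.45% higher and 3.21% lower of all genes. Their median change was -0.09, and 7 of the 11 had a change below 0, as did 57.4% of all genes. The hepatokine Lect2 had a change of 0.53 ± 0.12 (adjusted p = 0.152) with groups apart, and the glutamate transporter Slc1a2, the Wnt receptor partner Lgr5 and the vitamin C enzyme Gulo had changes of -0.17 ± 0.09, -0.38 ± 0.22 and -0.20 ± 0.10.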

How the data were processed

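Gene expression was measured on 8 arrays of liver total RNA, 4 WT and 4 HNF6KO. Per the labels' protocols, RNA was extracted with Trizol and labelled with biotin by a whole-transcript kit. The authors deposited 1 value per probe set and array, read here as log2 expression from its range. The sources used here name no logarithm base, background correction or normalization. Of 22725 probe sets, 21113 had 1 gene symbol in the platform annotation, 43 several and 1569 none here. The probe set with the highest mean stood for each of 19540 genes, and no value was rescaled or filtered.

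The 2 groups were compared by limma 3.58.1 under R 4.3.3 (lmFit, eBayes). P-values were adjusted by Benjamini-Hochberg across the 19540 genes, and a call needed an adjusted p under 0.05. The ± after a change is its moderated SE. Pairs of members were compared by exact permutation. The members and gene lists were chosen with earlier results of these data known. Named genes are all members, up to 4 per list with the smallest p, and a few others. These others were named for their role, position, level or size of change after their values were seen. The rule that would name genes of like profile asked for a span of 1 log2 unit over the 8 arrays, which 0 of 7 members had. List markers are printed as summed levels, the log2 of summed linear values. No 2 arrays were copies (r 0.987 to 0.997). On simulated data the limma step for this comparison called 32% of 50 genes changed by 0.25, 68% of 50 changed by 0.5 and 90% of 50 changed by 1, among 19540 genes. The changed genes were drawn at random from all genes, whose median SE was 0.071, against 0.069 to 0.139 for the members. These rates can therefore be too high for the noisier members. All changed genes were raised together in the same simulated data, with noise drawn independently for each gene. Deviations that genes share on an array were not simulated, so the rates can differ from those of the real arrays. The number of arrays limits the precision. Alternatives were scaling, filtering, variance model, weights, probe set choice, array number as a block or split, and leaving arrays out. Array numbers were not taken as pairs: the deviations of same-numbered arrays correlated at 0.439, 0.167, 0.506 and 0.0233 for numbers 1 to 4, and a pairing needed over 0.1 in each.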

Additional observations from a re-analysis of the deposited data

How the results depend on the processing

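The count of 0 members past the threshold held under all 20 alternatives. The count of 0 pairs held under the 11 run for it (quantile normalization, cyclic loess, the mean of probe sets, and each array left out), where the design could hardly give another count. Cyp2a12 and Cyp2d40 stayed below 0 in all 20 (-0.281 to -0.186 and -0.321 to -0.157). The lowest adjusted p of any member was 0.103, for Cyp2a12 with arrays 1 and 2 against 3 and 4 as a term. Cyp2d9, Cyp2d10 and Cyp2d26 had small changes of either sign, from -0.157 to 0.0328, -0.0956 to 0.0455 and -0.0664 to 0.0425 when 1 array was left out, while Cyp2a22 ran from -0.223 to -0.00295 and Cyp2d22 from 0.0124 to 0.205, and Cyp2d10 was 0.0302 within arrays 3 and 4. With array quality weights Cyp2a22 was 0.0690 and Cyp2d26 0.0234. The cause was not tested. Over all genes the count of 78 became 202 with array quality weights, 245 with arrays 1 and 2 against 3 and 4 as a term, 22 within arrays 1 and 2, and 16 to 79 without 1 array. With the array number as a replicate block it was 125, and the block changed no call of a member (Cyp2a12, limma, adjusted p = 0.128). WT arrays 1 and 3 correlated best with their own number, while WT array 2 did so with HNF6KO array 1 and WT array 4 with HNF6KO array 3. For Onecut1 and Cyp4f14 the alternatives were added after seeing the data. The filter at the 40th percentile left out Cyp2a22. Within arrays 3 and 4 the 77 calls split into 50 higher and 27 lower, against 31 and 47 overall. Scaling moved the median change of all genes by under 0.1.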
